A study of Homo sapiens with 6 samples.

Results

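The genes described here act in late G2 phase and mitosis. They were 50 genes chosen by name and role out of 58825 entries in the deposited table. They encode cyclins and CDK1 with its regulators, mitotic kinases, the chromosomal passenger complex, centromere and kinetochore proteins, the spindle assembly checkpoint, the anaphase machinery, chromosome structure proteins, spindle and cytokinesis proteins, and the transcription factors FOXM1 and MYBL2. The KIF genes for kinesins were not included, although CENPE is itself a kinesin motor. For each name, the identifier with the highest mean level was used.

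RNA-seq was performed on PANC-1 cells, an established human pancreatic cancer cell line. Maslinic acid (MA), a plant triterpene, was given at 40 µM for 24 h in 3 samples (MA PANC-1), and 3 samples were labelled untreated (PANC-1). The study's general treatment methods name MA or DMSO for its cells, and its RNA-seq methods list the controls as 0 µM MA. They do not say outright whether these RNA-seq controls carried DMSO. The study's methods call the 3 samples of each group biological replicates, without saying how the cultures were kept apart, and the p-values measure the spread between these samples. Bulk RNA was measured, and fewer mitotic cells and less RNA per mitotic cell cannot be told apart. Cell cycle phase was not part of these data, and the study's separate proteome of cells under the same treatment is not analysed here.

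MA PANC-1 1 to 3 held 56978375, 63984133 and 58181114 estimated counts, and PANC-1 1 to 3 held 70275355, 65607669 and 59422939. The cell line label was checked against cell type markers. The keratins KRT8 and KRT18 were at 141 to 225 and 278 to 338 FPKM (fragments per kilobase of transcript, scaled to library size), and VIM at 521 to 754 FPKM. The mesenchymal markers CDH2 and FN1 were lower, at 12.2 to 17.3 and 0.329 to 0.835 FPKM. The epithelial markers KRT7 and CDH1 were at 1.40 to 2.19 and 0.778 to 1.28 FPKM. The epithelial markers KRT19 and EPCAM were at or below 0.132 FPKM in every sample, and the acinar markers PRSS1, CPA1 and AMY2A were listed at the floor of 0.0001 FPKM in all 6. MA PANC-1 2 stood apart from the other libraries. The GC content of its transcripts, weighted by counts, was 51.2%, against 49.8% to 50.3% in the other 5, and its TMM scaling factor was 0.9415, against 1.0035 to 1.0184. Role groups, and the genes that moved most, are therefore also given without it.

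As background, CDK1 bound to cyclin B drives entry into mitosis. Kinetochores then attach chromosomes to spindle microtubules, and the spindle assembly checkpoint holds back the anaphase-promoting complex until all are attached. CDC20 activates that complex, which marks securin and cyclin B for destruction, separase then opens cohesin, and the cell divides. Many of these genes are transcribed late in the cell cycle through a promoter element called the cell cycle genes homology region, bound by the DREAM complex in resting cells and by the MYBL2 and FOXM1 complex in G2.

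RefSeq promoters (GRCh38.p14, 250 bases before to 50 after each transcript start) were at hand for 41 of the 50 genes. On either strand, TTTGAA or TTCGAA, the core of the homology region, was found in 30 of the 41 (73.2%), against 19.5% of 27305 genes in the promoter table. CCAAT, the box bound by NF-Y, was found in 31 (75.6%), against 39.7%, and both motifs in 22 (53.7%), against 7.85%. The motifs were searched separately and may share bases. PLK4 held each motif but was not counted among the 22, so that count is narrower than the overlap of the separate counts. The 80-base windows below show the motifs for genes with fold changes below and above 0, with the motifs in capitals on either strand, 5′ to 3′ on the gene's strand. They lie at chr15:90994536-90994615 (minus) for PRC1, chr7:36389782-36389861 (plus) for ANLN, chr15:40160986-40161065 (plus) for BUB1B, chr15:59105057-59105136 (plus) for CCNB2, chr16:23678800-23678879 (plus) for PLK1, chr1:43358856-43358935 (plus) for CDC20, chr11:62123941-62124020 (plus) for INCENP and chr19:11155837-11155916 (minus) for SPC24. PRC1, CCNB2, PLK1, CDC20 and INCENP hold both motifs, while the promoters of ANLN and BUB1B hold the hexamer without CCAAT. The SPC24 window is shown as the contrast, since its promoter holds CCAAT on both strands and neither TTTGAA nor TTCGAA.
PRC1: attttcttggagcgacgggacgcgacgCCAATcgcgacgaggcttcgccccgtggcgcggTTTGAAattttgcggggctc
ANLN: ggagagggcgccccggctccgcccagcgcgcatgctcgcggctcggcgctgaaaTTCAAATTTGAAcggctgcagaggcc
BUB1B: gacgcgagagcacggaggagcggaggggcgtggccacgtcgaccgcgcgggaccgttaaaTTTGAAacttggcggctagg
CCNB2: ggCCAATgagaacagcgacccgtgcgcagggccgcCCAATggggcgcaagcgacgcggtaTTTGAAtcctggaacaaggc
PLK1: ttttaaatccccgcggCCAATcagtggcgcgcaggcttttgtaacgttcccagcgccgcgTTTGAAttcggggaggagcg
CDC20: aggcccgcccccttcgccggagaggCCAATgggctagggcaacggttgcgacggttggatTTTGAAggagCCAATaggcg
INCENP: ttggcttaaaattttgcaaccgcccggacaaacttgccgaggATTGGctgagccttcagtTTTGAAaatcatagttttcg
SPC24: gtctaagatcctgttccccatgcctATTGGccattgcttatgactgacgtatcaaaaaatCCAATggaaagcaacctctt

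All 50 genes were expressed and passed the filter of a mean of 0.1 FPKM that left 17774 genes for testing. Their mean level over the 6 samples ran from 0.823 FPKM (CENPE) to 169 FPKM (TPX2), with a median of 15.9 FPKM, against a median of 2.49 FPKM over all genes tested. Means of at least 10 FPKM were found for 37 of the 50 (74.0%), against 22.1% of all genes tested. The level exceeded 100 FPKM for TPX2, MYBL2, CDC20, CCNB1 and UBE2C, and lay below 5 FPKM for CENPE, ASPM, WEE1, PLK4 and NUF2. TPX2 (169 FPKM) and MYBL2 (165 FPKM), the highest pair, overlapped in range, as did CCNB1 (109 FPKM) and UBE2C (103 FPKM). Summed over the 50 genes, the level was 1577, 1527 and 1616 FPKM over MA PANC-1 1 to 3 and 1573, 1508 and 1699 FPKM in PANC-1 1 to 3. The summed level therefore overlapped between the groups, with PANC-1 2 lowest and PANC-1 3 highest.

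**Figure D1:**
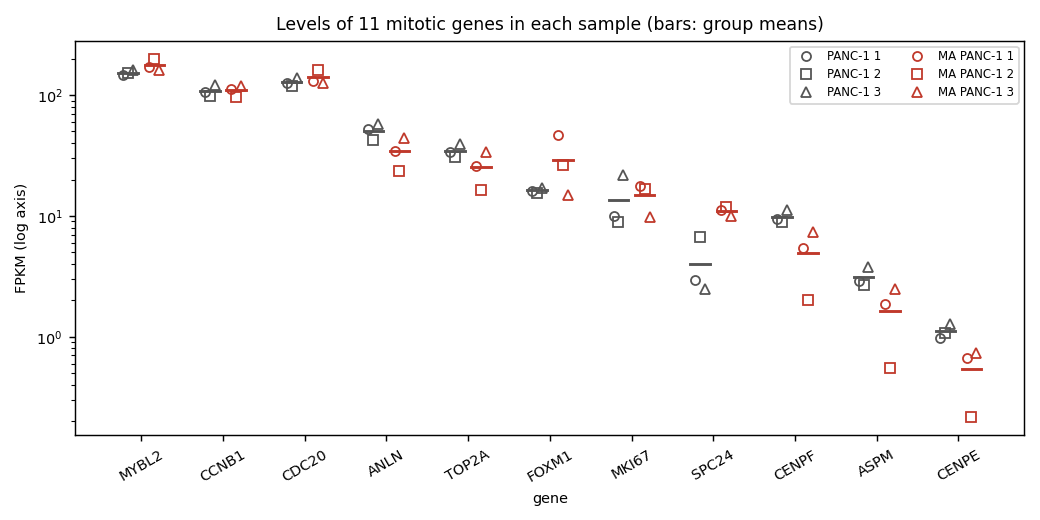
FPKM on a log axis for 11 of the genes, with a symbol for each of the 6 samples and a bar at each group's mean. CENPE, CENPF and ASPM were lower and SPC24 higher in all MA PANC-1 samples than in any PANC-1 sample, while the points of CCNB1, CDC20 and MKI67 mix.

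After 24 h of MA, the G2 and mitosis genes had no shared direction. Of the 50, 27 (54.0%) had a log2 fold change below 0 in MA PANC-1 relative to PANC-1, as did 50.2% of all genes tested, and the median log2 fold change was −0.03, against −0.00 over all genes tested. The quartiles were −0.31 and 0.12, and the extremes were the kinetochore motor CENPE at −1.02 and the kinetochore subunit SPC24 at 1.49. For 30 of the 50 (60.0%) the log2 fold change lay within 0.25 of 0, against 54.5% of all genes tested and 65.9% of those with a mean of at least 1 FPKM. Leaving out each sample in turn moved the median between −0.10 and 0.01.

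No gene of the 50 passed an adjusted p of 0.05 in edgeR's quasi-likelihood test with Benjamini-Hochberg adjustment, where 7 of all genes tested did (0.0394%). The smallest adjusted p was 0.379, for SPC24. DESeq2 called 1, SPC24 (adjusted p = 0.00152), beside 263 of the 14623 genes to which it gave an adjusted p (1.80%). At an unadjusted p under 0.05, 6 genes were lower (CENPE, CENPF, BUB1B, SMC2, PRC1 and ANLN), beside a background of 5.86%, and 2 were higher (SPC24 and FOXM1), beside 5.37%. The study's criteria for a differentially expressed gene were a fold of at least 2 and an unadjusted p under 0.05. Applied to the edgeR fit used here, they gave SPC24 as higher (background 0.675%) and CENPE as lower (1.25%). CENPF, at a log2 fold change of −0.99, fell just short of a fold of 2 in this fit. The study's own list of genes shared by its transcriptome and proteome gives CENPF as significant and lower in mRNA. Only SPC24 met the criteria in the fits without MA PANC-1 2, or when any PANC-1 sample was left out. Without MA PANC-1 3, 5 genes met them (3.00% of all genes tested). At an unadjusted p under 0.05 alone, 12 genes were lower without MA PANC-1 3, where 9.69% of all genes tested were called lower. The number of lower genes was 3 without PANC-1 2 (background 4.20%). It was 1 without MA PANC-1 1 (4.13%), 1 without PANC-1 3 (3.49%) and 0 without PANC-1 1 (3.53%). The number of higher genes ran from 1 to 4, beside backgrounds of 3.10% to 8.39%.

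In FPKM, the 3 MA PANC-1 values lay below all 3 PANC-1 values for CENPE, CENPF, SMC2, TPX2, ASPM and PRC1, against a background of 11.1%. They lay above them for CDC25C, CDCA8, SPC24 and MYBL2, against 8.79%. The groups overlapped for the other 40 genes. With 3 samples against 3, an exact two-sided permutation test cannot go below p = 0.1, which these 10 genes reached.

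**Figure D2:**
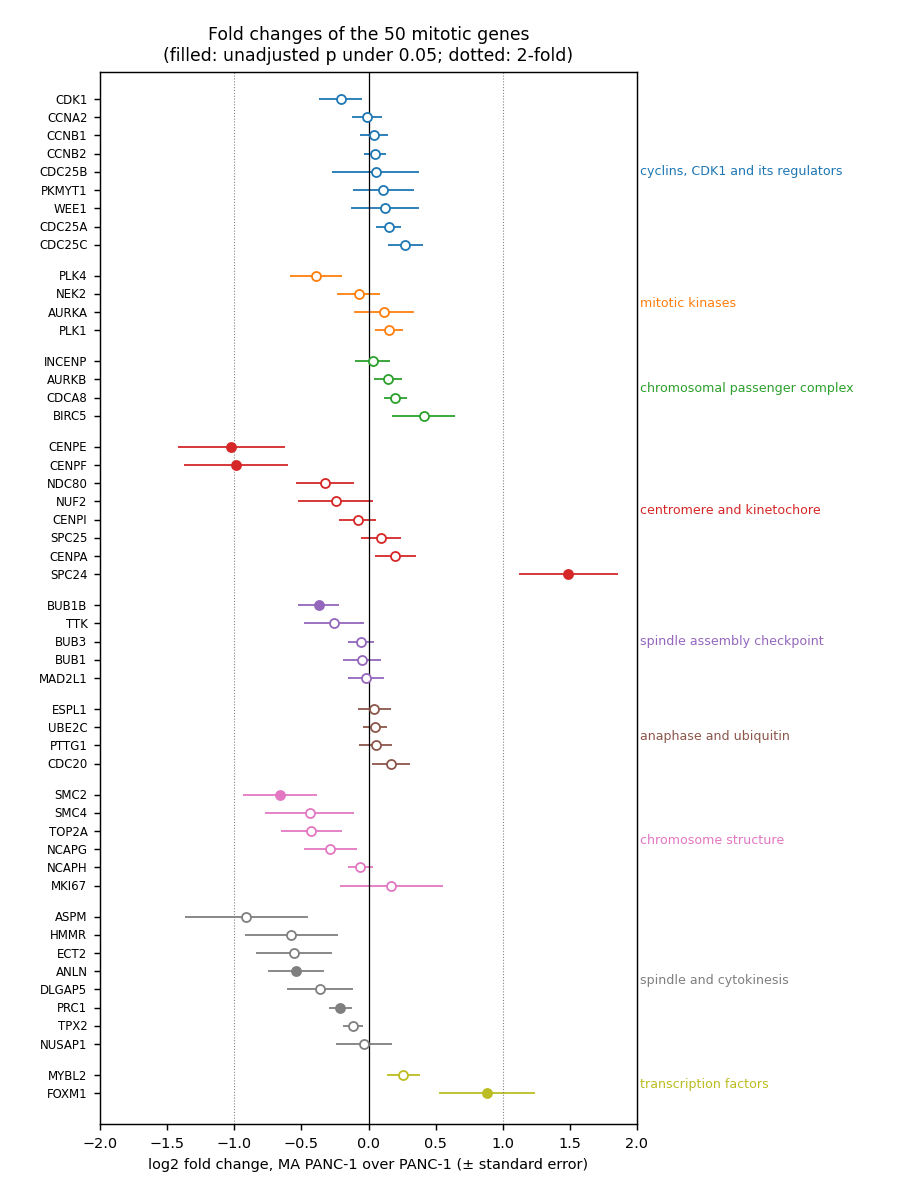
Log2 fold change of MA PANC-1 relative to PANC-1 for the 50 genes from edgeR, grouped by role, with bars of 1 standard error and filled points at an unadjusted p under 0.05. The values ran from −1.02 for CENPE to 1.49 for SPC24, and all 8 spindle and cytokinesis genes lay below 0 with the 6 samples together.

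The cyclins, CDK1 and its regulators had a median log2 fold change of 0.05, with 2 of 9 below 0 and 8 of 9 within 0.25 of 0. The median was 0.04, with 4 of 9 below 0, without MA PANC-1 2. CCNB1, cyclin B1, the partner of CDK1 at mitotic entry, was at 111, 96.5 and 120 FPKM after MA and 106, 98.2 and 121 FPKM in PANC-1 (log2 fold change 0.04, SE 0.10, edgeR adjusted p = 0.896). Its groups overlapped, with the lowest value in MA PANC-1 2 and the highest in PANC-1 3. CCNA2, cyclin A2, was at 42.8, 34.5 and 47.5 FPKM after MA and 42.5, 40.1 and 46.0 FPKM in PANC-1 (log2 fold change −0.01, SE 0.11). CDK1 was at 17.0, 14.5 and 20.6 FPKM after MA and 20.4, 16.9 and 24.4 FPKM in PANC-1 (log2 fold change −0.21, SE 0.16, edgeR adjusted p = 0.626). The highest MA PANC-1 value of CDK1 exceeded 2 of the 3 PANC-1 values.

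CDC25C, the phosphatase that activates CDK1, had the smallest p of these 9 genes. Its values were 9.70, 10.4 and 10.7 FPKM after MA and 8.82, 9.64 and 7.62 FPKM in PANC-1 (log2 fold change 0.27, SE 0.13, edgeR adjusted p = 0.467). The groups did not overlap, although the nearest samples differed by less than the spread within PANC-1. The log2 fold changes of the related phosphatases CDC25A and CDC25B were 0.15 and 0.05, and those of the inhibitory kinases WEE1 and PKMYT1 were 0.12 and 0.11. CDC25B, WEE1 and PKMYT1 were at −0.335, −0.01 and −0.20 without MA PANC-1 2. CCNB2 was at 0.05.

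Of the 4 mitotic kinases, PLK1 and AURKA were above 0 and PLK4 and NEK2 below it, and without MA PANC-1 2 only PLK4 was below it, at −0.22. PLK1, which acts from centrosome maturation to cytokinesis, was at 21.6, 22.2 and 20.1 FPKM after MA and 19.1, 18.4 and 21.5 FPKM in PANC-1 (log2 fold change 0.15, SE 0.10). AURKA, the spindle pole kinase, was at 48.4, 41.9 and 51.3 FPKM after MA and 29.8, 45.7 and 58.3 FPKM in PANC-1 (log2 fold change 0.11, SE 0.22). Its PANC-1 samples spanned its MA PANC-1 samples on both sides, and without PANC-1 1 its log2 fold change was −0.11. PLK4, which starts centriole duplication, was at 3.92, 2.60 and 4.61 FPKM after MA and 4.87, 4.50 and 5.50 FPKM in PANC-1 (log2 fold change −0.39, SE 0.19, edgeR adjusted p = 0.485). NEK2, a centrosome kinase, was at −0.07.

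All 4 subunits of the chromosomal passenger complex, which corrects faulty attachments of chromosomes to the spindle, were above 0 (median log2 fold change 0.17). The median was 0.06 and INCENP was below 0, at −0.11, without MA PANC-1 2. AURKB, its kinase, was at 40.0, 42.3 and 37.7 FPKM after MA and 35.5, 36.9 and 39.4 FPKM in PANC-1 (log2 fold change 0.14, SE 0.10). CDCA8, borealin, was at 76.0, 78.8 and 75.1 FPKM after MA and 68.8, 66.2 and 70.4 FPKM in PANC-1 (log2 fold change 0.20, SE 0.09, edgeR adjusted p = 0.446). Every MA PANC-1 sample of CDCA8 lay above every PANC-1 sample. BIRC5, survivin, was at 10.3, 17.1 and 10.1 FPKM after MA and 9.43, 9.47 and 10.3 FPKM in PANC-1 (log2 fold change 0.41, SE 0.24, edgeR adjusted p = 0.522). MA PANC-1 3 lay within the PANC-1 range, and MA PANC-1 1 barely above it, at 10.313 against 10.295 FPKM in PANC-1 3. Only MA PANC-1 2 stood clear of the range, and without that sample the log2 fold change of BIRC5 was 0.07. INCENP, the scaffold, was at 0.03.

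The 8 centromere and kinetochore genes held both ends of the range, with 5 below 0 (median log2 fold change −0.16). Their median was 0.01, with 4 below 0, without MA PANC-1 2, as it was with the GC trend of the libraries removed. SPC24 (ENSG00000161888, chromosome 19, 11131520 to 11155808, GRCh38), a subunit of the NDC80 complex that binds microtubules, had the highest fold change of the 50. Its values were 11.2, 11.9 and 10.1 FPKM after MA and 2.97, 6.65 and 2.48 FPKM in PANC-1. These rested on 2153, 2585 and 1986 estimated counts after MA and on 710, 1481 and 500 in PANC-1. Each MA PANC-1 sample was higher than each PANC-1 sample, and PANC-1 2 stood above the other 2 untreated samples. The log2 fold change was 1.49 (SE 0.37, edgeR adjusted p = 0.379), and it lay between 1.23 and 2.06 when each sample was left out, at 1.39 without MA PANC-1 2. Its unadjusted p stayed under 0.05 in all 6 of those fits and in all 12 other alternatives. Whether strand was used in counting was not given in the sources used here, so the SPC24 counts are uncertain wherever transcripts of the opposite strand share its bases.

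The other 3 subunits of the NDC80 complex were not called with SPC24. NDC80 was at 18.1, 10.8 and 21.6 FPKM after MA and 22.3, 19.0 and 22.9 FPKM in PANC-1 (log2 fold change −0.32, SE 0.22, edgeR adjusted p = 0.579). NUF2 and SPC25 were at log2 fold changes of −0.25 and 0.09. The lowest value of NDC80, NUF2 and SPC25 was in MA PANC-1 2 in each case, and without it they were at −0.11, −0.01 and 0.21.

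CENPE (ENSG00000138778, chromosome 4, 103105806 to 103198409), the motor that moves chromosomes to the spindle equator, was the lowest in level and in fold change. It was at 0.667, 0.216 and 0.732 FPKM after MA and 0.978, 1.08 and 1.26 FPKM in PANC-1 (log2 fold change −1.02, SE 0.40, edgeR adjusted p = 0.435). CENPF (ENSG00000117724, chromosome 1, 214603195 to 214664571), a large coat protein of the kinetochore, was at 5.41, 2.01 and 7.33 FPKM after MA and 9.49, 8.89 and 11.2 FPKM in PANC-1 (log2 fold change −0.99, SE 0.39, edgeR adjusted p = 0.435). All MA PANC-1 samples of both genes were below all PANC-1 samples, and MA PANC-1 2 was the lowest. Without MA PANC-1 2 the log2 fold changes were −0.66 for CENPE and −0.63 for CENPF, and the unadjusted p of both stayed under 0.05. The unadjusted p of CENPE was above 0.05 when any PANC-1 sample was left out, and that of CENPF also without MA PANC-1 1.

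CENPA, the histone H3 variant that marks centromeres, was at 9.70, 7.70 and 11.2 FPKM after MA and 9.14, 7.64 and 8.68 FPKM in PANC-1 (log2 fold change 0.20, SE 0.15). It overlaps SLC35F6 on the same strand, and with the counts of both summed, 74.3% of them from SLC35F6, the log2 fold change was 0.28, with an unadjusted p under 0.05. CENPI, of the inner kinetochore, was at −0.08.

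All 5 spindle assembly checkpoint genes were below 0, with 3 of them within 0.25 of 0 (median log2 fold change −0.06). Only BUB1B and TTK were below 0 (median 0.01) without MA PANC-1 2, and with the GC trend of the libraries removed likewise 2 of 5 (median 0.06). BUB1B, which encodes the checkpoint protein BUBR1, had the smallest p of these. It was at 17.3, 15.0 and 20.08 FPKM after MA and 28.1, 19.99 and 21.3 FPKM in PANC-1 (log2 fold change −0.37, SE 0.15, edgeR adjusted p = 0.439). MA PANC-1 3 barely exceeded PANC-1 2, and without PANC-1 1 the log2 fold change was −0.21. Its unadjusted p was above 0.05 without MA PANC-1 1, MA PANC-1 2 or PANC-1 1. TTK, the kinase MPS1 at the head of the checkpoint, was at 5.63, 3.82 and 7.36 FPKM after MA and 7.50, 5.56 and 7.41 FPKM in PANC-1 (log2 fold change −0.26, SE 0.22), and its log2 fold change was −0.07 without MA PANC-1 2.

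BUB1, the kinase that recruits the checkpoint to kinetochores, was at 16.9, 13.0 and 20.01 FPKM after MA and 17.9, 15.9 and 19.0 FPKM in PANC-1 (log2 fold change −0.05, SE 0.14). MAD2L1, which holds CDC20 inactive, was at 11.1, 9.18 and 13.4 FPKM after MA and 11.5, 10.6 and 12.8 FPKM in PANC-1 (log2 fold change −0.02, SE 0.14). For both, the MA PANC-1 samples held the lowest and the highest value of all 6, and the log2 fold changes were 0.07 and 0.07 without MA PANC-1 2. BUB3, the partner of BUB1 and BUB1B, was at −0.06, and at 0.01 without that sample.

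The 4 anaphase genes lay within 0.25 of 0, all above it (median log2 fold change 0.05). Without MA PANC-1 2 the median was 0.01, with CDC20 at 0.00 and ESPL1 below 0, at −0.09. CDC20, the activator of the anaphase-promoting complex, was at 131, 162 and 126 FPKM after MA and 126, 120 and 139 FPKM in PANC-1 (log2 fold change 0.17, SE 0.14, edgeR adjusted p = 0.651). Its highest value was in MA PANC-1 2, and the other MA PANC-1 samples lay within the PANC-1 range. UBE2C, the ubiquitin-conjugating enzyme of that complex, was at 0.05, as was PTTG1, securin. ESPL1, separase, was at 0.04.

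Of the 6 chromosome structure genes, 5 were below 0 (median log2 fold change −0.35). The same number was below 0, with a median of −0.11, when MA PANC-1 2 was left out. With the GC trend of the libraries removed the median was −0.15, again with 5 below 0. SMC2, a core subunit of condensin, was at 4.61, 2.30 and 5.55 FPKM after MA and 7.04, 5.91 and 7.07 FPKM in PANC-1 (log2 fold change −0.66, SE 0.27, edgeR adjusted p = 0.441). The groups did not overlap, and without MA PANC-1 2 the log2 fold change was −0.39. Its unadjusted p was above 0.05 without MA PANC-1 1 or any PANC-1 sample. The other condensin subunits SMC4, NCAPG and NCAPH were at −0.44, −0.28 and −0.06, and at −0.12, −0.09 and −0.05 without MA PANC-1 2. TOP2A, the topoisomerase that untangles sister chromatids, was at 25.8, 16.3 and 34.0 FPKM after MA and 34.0, 30.5 and 39.5 FPKM in PANC-1 (log2 fold change −0.43, SE 0.23, edgeR adjusted p = 0.503), and its log2 fold change was −0.21 without MA PANC-1 2.

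MKI67, which encodes the proliferation marker Ki-67, differed more within groups than between them. It was at 17.6, 16.9 and 9.80 FPKM after MA and 9.93, 8.87 and 21.9 FPKM in PANC-1 (log2 fold change 0.17, SE 0.38, edgeR adjusted p = 0.888). In MA PANC-1, 2 samples were high and 1 low, and in PANC-1, 1 was high and 2 low. Leaving out each sample in turn moved its log2 fold change between −0.06 and 0.69.

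The 8 spindle and cytokinesis genes were all below 0, with the lowest median of the role groups (log2 fold change −0.45). When MA PANC-1 2 was left out the median was −0.23 and 7 of the 8 were below 0, with NUSAP1 at 0.11. With the GC trend of the libraries removed the median was −0.29, again with 7 below 0. ANLN, anillin, a scaffold of the contractile ring, was at 34.3, 23.6 and 44.5 FPKM after MA and 51.9, 42.3 and 57.5 FPKM in PANC-1 (log2 fold change −0.54, SE 0.21, edgeR adjusted p = 0.434). MA PANC-1 3 exceeded PANC-1 2, so the groups overlapped, and without MA PANC-1 2 the log2 fold change was −0.36, with an unadjusted p above 0.05. It was also above 0.05 without MA PANC-1 1, PANC-1 1 or PANC-1 3. PRC1, which bundles the microtubules of the central spindle, was at 27.2, 26.3 and 29.03 FPKM after MA and 33.8, 29.9 and 34.2 FPKM in PANC-1 (log2 fold change −0.21, SE 0.09, edgeR adjusted p = 0.439). The groups did not overlap, but its unadjusted p was above 0.05 without MA PANC-1 1, MA PANC-1 3, PANC-1 1 or PANC-1 3. With the counts of genes that overlap PRC1 on its strand added, its log2 fold change was −0.17, with an unadjusted p above 0.05.

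TPX2, which activates AURKA on the spindle, had the tightest values of the named genes of this role. It was at 161, 154 and 165 FPKM after MA and 177, 179 and 177 FPKM in PANC-1 (log2 fold change −0.11, SE 0.07, edgeR adjusted p = 0.555), with no overlap. ASPM, which keeps spindle poles focused, was at 1.88, 0.548 and 2.49 FPKM after MA and 2.88, 2.69 and 3.76 FPKM in PANC-1 (log2 fold change −0.91, SE 0.46, edgeR adjusted p = 0.487). Its groups did not overlap either, and without MA PANC-1 2 the log2 fold change was −0.51. The remaining genes were the spindle assembly factor HMMR at −0.58, ECT2, which starts furrowing, at −0.55, and the microtubule-binding proteins DLGAP5 at −0.36 and NUSAP1 at −0.03. HMMR, ECT2 and DLGAP5 were at −0.25, −0.30 and −0.14 without MA PANC-1 2.

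Both transcription factors were above 0 (median log2 fold change 0.57, and 0.52 without MA PANC-1 2). FOXM1 was at 46.4, 26.2 and 14.9 FPKM after MA and 15.9, 15.6 and 17.2 FPKM in PANC-1 (log2 fold change 0.88, SE 0.36, edgeR adjusted p = 0.439). The 3 MA PANC-1 values were far apart, and MA PANC-1 3 lay below every PANC-1 sample. The log2 fold change of FOXM1 was 0.41 without MA PANC-1 1 and 0.92 without MA PANC-1 2. Its unadjusted p stayed under 0.05 in 1 of the 6 fits with a sample left out, that without MA PANC-1 3. In the 12 other alternatives it stayed under 0.05 in 6, and was above it with the GC trend removed or with the replicate block. FOXM1 overlaps RHNO1, on the opposite strand, which had 4091 to 4812 counts after MA and 4446 to 5320 in PANC-1. MYBL2 was at 171, 200 and 162 FPKM after MA and 146, 152 and 160 FPKM in PANC-1 (log2 fold change 0.26, SE 0.12, edgeR adjusted p = 0.471). All MA PANC-1 samples of MYBL2 lay above the PANC-1 samples, the nearest pair by less than 2 FPKM, and its log2 fold change was 0.12 without MA PANC-1 2.

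**Figure D3:**
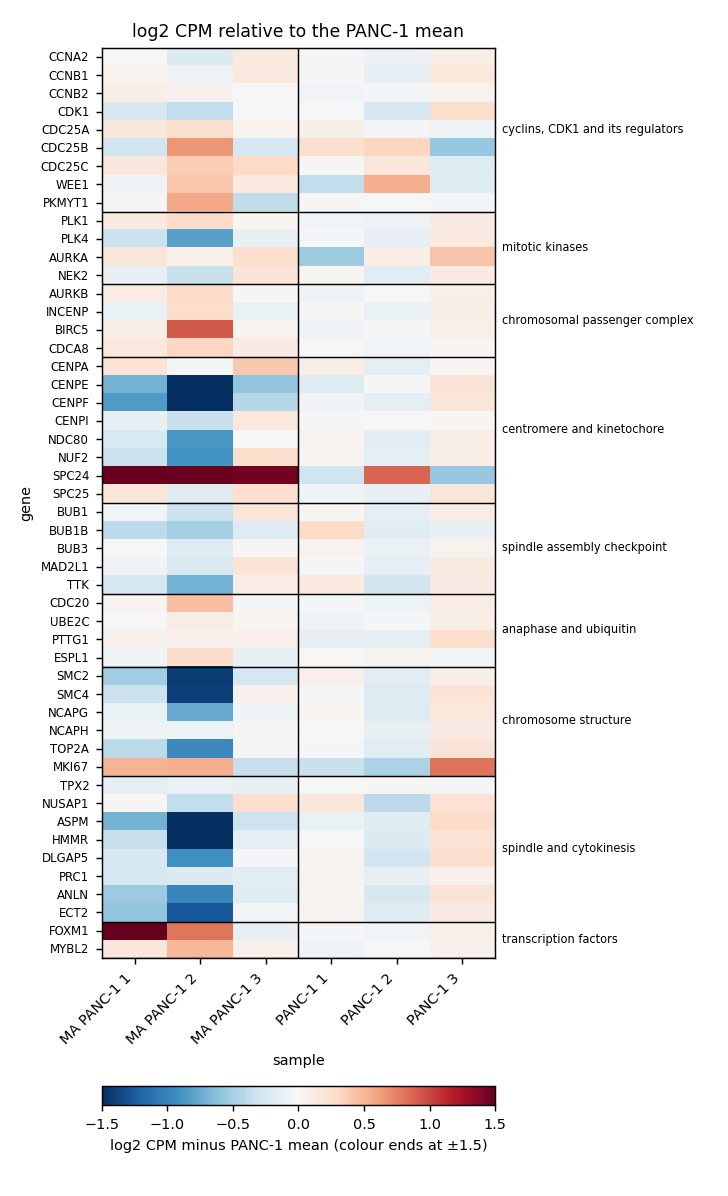
Log2 CPM (counts scaled to library size) of the 50 genes in each sample minus the mean of the 3 PANC-1 samples, with blue for lower and red for higher values, and genes grouped by role. MA PANC-1 2 holds the deepest blue, in CENPE, CENPF, SMC2, SMC4, ASPM, HMMR and ECT2, and SPC24 is red in all 3 MA PANC-1 samples.

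The libraries contributed unequally to these values. In log2 CPM (counts scaled to library size) relative to the PANC-1 mean, the median over the 50 genes was −0.06, −0.19 and 0.01 in MA PANC-1 1 to 3 and −0.01, −0.12 and 0.11 in PANC-1 1 to 3. MA PANC-1 2 held the lowest value of the 6 samples for 24 of the 50 genes (48.0%), against 28.7% of all genes tested, and the highest for 14 (28%), against 28.3%. PANC-1 3 held the highest value for 21 genes (42.0%), against 17.5%. In the spindle and cytokinesis group, the median was −0.30, −0.95 and −0.12 in MA PANC-1 1 to 3. In the chromosome structure group it was −0.21, −0.87 and −0.05. The direction was thus shared by the 3 MA PANC-1 samples in both groups, with MA PANC-1 2 the lowest. However, PANC-1 2 also lay below 0, at −0.19 and −0.18, and below MA PANC-1 3 in both. Treated and untreated samples therefore overlapped. PANC-1 1 was at 0.04 and −0.01.

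The fold changes of the 50 genes followed the GC content of their longest annotated transcripts. GC content ranged from 35.3% to 66.2% (median 42.9%, against 48.8% over all genes tested). Spearman's rho between GC content and log2 fold change was 0.77 over the 50 genes and 0.35 over 17721 genes tested with a known GC content. These genes share the same 6 libraries and are not independent. Without MA PANC-1 2 the rho values were 0.47 and 0.12. With each library's GC trend removed, they were 0.39 and −0.02. Transcript length was less closely related, at −0.47 and −0.09.

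Below 40% GC, 13 of 14 genes were lower in MA PANC-1 (median log2 fold change −0.41), as were 79.6% of all genes in that band (median −0.23). These 14 included CENPE, SMC2, SMC4, ASPM, HMMR and ECT2. From 40% to under 50%, 14 of 22 were lower (median −0.05), against 58.7% (median −0.06). At 50% or more, none of 14 was lower (median 0.15), against 33.9% (median 0.12), and these included SPC24, FOXM1, MYBL2, CDC20, PLK1 and the 4 passenger complex genes. The medians of the 3 bands in MA PANC-1 2 alone were −0.95, −0.20 and 0.38.

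Without MA PANC-1 2 the band medians of the 50 genes were −0.18, 0.03 and 0.06. With the GC trend removed, they were −0.20, 0.07 and 0.04, with 11, 8 and 4 genes lower. CENPE and CENPF were then at −0.80 and −0.87, SMC2 at −0.45, ANLN at −0.36, SPC24 at 1.41 and FOXM1 at 0.78. The sign changed for 12 of the 50 genes. CDK1, CCNA2, BUB1, MAD2L1, NEK2, CENPI, BUB3 and NUSAP1 turned positive, to 0.07, 0.12, 0.06, 0.20, 0.06, 0.08, 0.10 and 0.07. CDC25B, PKMYT1, INCENP and ESPL1 turned negative, to −0.11, −0.07, −0.11 and −0.08. Without MA PANC-1 2 the sign also changed for 12 genes, the same ones but for WEE1 in place of CDK1.

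**Figure D4:**
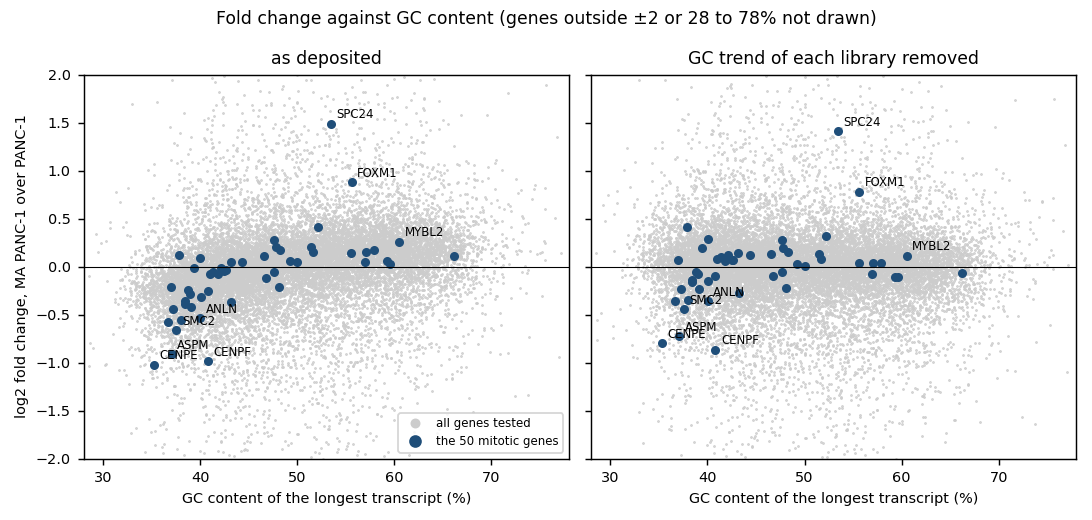
Log2 fold change against the GC content of the transcript (%) for all genes tested (grey) and the 50 genes (blue), as deposited in the left panel and with the GC trend of the libraries removed in the right. In the left panel none of the 14 blue points at 50% GC or more lies below 0, and in the right panel 4 do, while CENPE and CENPF stay low and SPC24 stays high.

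Fold changes are given beside the promoter motifs as a description, with no test. The 30 genes with TTTGAA or TTCGAA had a median log2 fold change of −0.21, with 19 below 0. The 11 genes without either had a median of 0.04, with 5 below 0, and the 9 genes not in the promoter table had 0.11, with 3 below 0. Among the windows shown above, PRC1, ANLN and BUB1B were at −0.21, −0.54 and −0.37, while CCNB2, PLK1, CDC20 and INCENP, which carry the same hexamer, were at 0.05, 0.15, 0.17 and 0.03.

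A further 125 genes of the same processes, from 6 lists, are given for comparison. Of these, 77 (61.6%) had a log2 fold change below 0 (median −0.07), against 50.2% of all genes tested. An unadjusted p under 0.05 was found for 9 in the lower direction, beside a background of 5.86%, and for 4 in the higher direction, beside 5.37%. None passed an adjusted p of 0.05 in edgeR. CDKN1A did so in DESeq2 (background 1.80%) and in edgeR with the GC trend removed (0.186%). Below 0 were 22 of 32 other kinetochore genes, 18 of 26 other spindle genes, 10 of 14 other condensin and cohesin genes, 9 of 17 other G2 and M genes, 11 of 19 regulators of the DREAM and MMB complexes, and 7 of 17 genes of the anaphase-promoting complex. In every list the median log2 fold change lay between −0.15 and 0.07. With the GC trend removed the median of the 125 was 0.0032.

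CDKN1A (ENSG00000124762, chromosome 6, 36676460 to 36687339), which encodes the CDK inhibitor p21, had the smallest p of the 125. It was at 27.8, 35.0 and 21.3 FPKM after MA and 57.7, 69.2 and 70.1 FPKM in PANC-1 (log2 fold change −1.18, SE 0.21, edgeR adjusted p = 0.216). Its groups lay wide apart, with every MA PANC-1 sample far below every PANC-1 sample.

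KNTC1, of the kinetochore, was at 2.10, 1.56 and 2.74 FPKM after MA and 3.30, 2.92 and 3.43 FPKM in PANC-1 (log2 fold change −0.56, SE 0.18, edgeR adjusted p = 0.417). DSN1, of the MIS12 complex, was at 17.8, 15.8 and 20.5 FPKM after MA and 23.8, 22.1 and 21.7 FPKM in PANC-1 (log2 fold change −0.29, SE 0.11, edgeR adjusted p = 0.431). Neither gene overlapped between the groups.

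Higher were FZR1, the other activator of the anaphase-promoting complex, MAD2L1BP, which disarms the checkpoint, and CKS1B, a CDK subunit. FZR1 was at 5.93, 5.81 and 4.63 FPKM after MA and 3.83, 4.24 and 3.84 FPKM in PANC-1 (log2 fold change 0.50, SE 0.14, edgeR adjusted p = 0.388). It overlaps MFSD12 on the opposite strand by 70 bases. MAD2L1BP was at 18.6, 19.0 and 19.3 FPKM after MA and 17.2, 15.4 and 14.3 FPKM in PANC-1 (log2 fold change 0.31, SE 0.11, edgeR adjusted p = 0.429). CKS1B was at 62.9, 67.4 and 62.5 FPKM after MA and 53.3, 41.2 and 58.1 FPKM in PANC-1 (log2 fold change 0.38, SE 0.14, edgeR adjusted p = 0.431). The groups of all 3 were separate.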

How the data were processed

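Poly(A) RNA of 3 MA PANC-1 and 3 PANC-1 samples was sequenced in pairs from a dUTP-marked library. The deposited table, made by the authors, holds FPKM and estimated counts per gene for each sample, without pooling. The submitters' processing notes name cutadapt 1.9, HISAT2 2.0.4, StringTie 1.3.4d, edgeR and DESeq2. Whether strand was used in counting was not given in the sources used here. Positions of 47556 of the 58825 entries equal those of GENCODE release 29 (GRCh38). The totals of estimated counts exceed the valid reads that the study lists for every sample, so 1 count is not 1 read, no depth intervals are given, and halved counts were an alternative.

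Genes with a mean of at least 0.1 FPKM (17774) were tested on the deposited estimated counts, which are whole numbers, with edgeR 4.0.16 (TMM factors, quasi-likelihood F test, Benjamini-Hochberg adjustment) in R 4.3.3, with group as the term. Log2 fold changes, SEs and p-values without another tool named are from this fit. Per-gene GC content and length came from the GENCODE transcripts, and promoters from RefSeq. The fit was also run on simulated counts, with results not given here. Alternatives were DESeq2 1.42.0, limma 3.58.1 on log2(FPKM + 0.1), log2(FPKM + 1) and quantile-normalized values, RLE factors, other filters, halved counts, summed overlapping genes, a GC trend removed per library, a replicate block and leaving out each sample. The groups that do not overlap were also counted in TMM-scaled CPM, chosen after seeing the data, and those counts are not given here.

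The genes and lists were chosen with earlier results of these data known. Values in every sample are given for 22 genes central to each process, for the gene of smallest p in each role, and among the 125 others for CDKN1A and the 3 of smallest p in each direction with a mean of at least 1 FPKM. These are 34 genes, and PRC1 was added after its values were seen.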

Additional observations from a re-analysis of the deposited data

How the results depend on the processing

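For the 50 genes, the number with an adjusted p under 0.05 was 0 in edgeR and 1 in DESeq2 (SPC24), which called 1.80% of all genes with an adjusted p. The number lower at an unadjusted p under 0.05 was 6, and 12 with the replicate block, where 6.96% of all genes tested were called lower. The number higher was 2, and it was 4 with the GC trend removed (7.30% of all genes called higher), 5 with the GC trend removed and the replicate block (6.42%), 1 with the replicate block alone (5.50%), and 1 with limma at a pseudocount of 0.1 (4.86%) or 1 (4.84%). The number past a fold of 2 was 2, and it was 4 with the replicate block (1.84% of all genes) and 1 with the GC trend removed (1.78%), with that and the replicate block (1.55%), or with limma on log2(FPKM + 1) (0.248%). For the 125 others, the number with an adjusted p under 0.05 was 0, and 1 (CDKN1A) with DESeq2 or the GC trend removed (0.186% of all genes). The median of −0.07 was 0.0032 with the GC trend removed and −0.0001 with that and the replicate block. The number higher was 4, then 12 with the GC trend removed, 9 with that and the replicate block and 8 with the replicate block, beside the same 7.30%, 6.42% and 5.50% of all genes. The number lower was 9, and 19 with the replicate block, beside 6.96%.

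With the GC trend removed, BUB1 was at 0.0632, CCNA2 at 0.1156, CDK1 at 0.0719 and MAD2L1 at 0.1957, and with the replicate block as well at 0.0626, 0.1166, 0.0757 and 0.1961. CCNB1 was at −0.0172 after quantile normalization. The cause was not tested.

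Leaving out each sample gave 0 to 12 lower and 1 to 4 higher genes of the 50 at an unadjusted p under 0.05, and 1 to 5 past a fold of 2. Groups did not overlap for 6 to 17 in the lower direction, beside 14.8% to 21.8% of all genes, and for 4 to 10 in the higher, beside 11.9% to 16.1%. The 17 were without PANC-1 2 (17.7%) and the 10 without PANC-1 3 (12.3%). For the 125 others, 2 to 19 were lower, beside 3.49% to 9.69% of all genes, 1 to 10 higher, beside 3.10% to 8.39%, and 1 to 3 past a fold of 2, beside 1.83% to 3.00%. The highest of each were without MA PANC-1 3, as were the highest shares of all genes. Their median ran from −0.0978 without MA PANC-1 3 to −0.0124 without MA PANC-1 2. Among the 34 genes named by the rule, the log2 fold changes that changed sign spanned −0.0972 to 0.0725 for CCNA2, −0.0234 to 0.1265 for CCNB1, −0.1798 to 0.0688 for BUB1, −0.1412 to 0.0743 for MAD2L1, −0.1076 to 0.35 for AURKA and −0.0638 to 0.692 for MKI67. The sign changed in at least 1 of these fits for 16 of all 50 genes. Of these 34, 27 kept their direction in every setting that gave them a value, and CENPE had none under the filter of a mean of at least 1 FPKM.

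The replicate numbers were not taken as pairing. Deviations from the group means correlated at 0.078, 0.114 and 0.078 between same-numbered samples and at −0.076 to −0.003 between others, so every sample correlated best with its own number, a hint from the data and not from the design. The number of samples, 3 a group, limits the precision.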
